A study of Mus musculus with 2 samples.

Results

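Actin is the protein of the filaments that lie beneath the plasma membrane of a B cell. Filaments grow from actin monomers, which thymosins hold in reserve and profilin delivers, they branch at the Arp2/3 complex, and cofilin severs them. In B cells this network shapes the cell, carries it through vessel walls and tissue, and limits how freely the antigen receptor moves in the membrane. The genes described are 10 of the 31053 genes counted. They are the cytoplasmic actins Actb and Actg1, the monomer-binding proteins Tmsb4x, Tmsb10 and Pfn1, the filament turnover factors Cfl1 and Coro1a, the Arp2/3 subunits Arpc1b and Arpc3, and the filament-binding protein Tagln2 (transgelin 2). They were chosen by name with earlier results of these libraries known, to ask whether the higher neonatal level of Tagln2 was shared by the other actin genes. Tagln2 is also in a gene list that the study drew from these same libraries. Its age difference is therefore a description and not independent evidence.

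The neonatal library held myocardial B cells (sorted by flow cytometry from the digested heart) of wild-type C57BL6/J mice aged 2 weeks, of both sexes, and the adult library held those of male wild-type C57BL6/J mice aged 8 weeks. For each age 6 mice were pooled into 1 library, so age cannot be told apart from the library, and part of the sex difference goes with age. Cells were droplets with at least 2000 UMIs (single RNA molecules counted once) from genes, at most 10% mitochondrial UMIs and a UMI of Cd79a, the signalling chain of the B cell receptor. This left 2077 of 2507 neonatal and 3611 of 4120 adult droplets of that size, with medians of 6000 and 6131 UMIs. The libraries shared 2 of these barcodes, without which the Tagln2 age ratio given below was −1.52 on the log2 scale. All 6 B cell markers checked had UMIs in both libraries, with Cd74 the highest. Cd79a is among them and was required of every cell, so its presence was fixed in advance. A UMI somewhere in a library is a weak criterion, since all 6 macrophage and all 6 T cell markers also met it in both libraries.

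No test between ages is possible with a single library of each, and no spread between mice can be given. A level is the number of UMIs of a gene per 1000000 UMIs of the same cells (CPM). Intervals are exact 95% intervals for counting error alone. The protocol counts 1 tag near the 3′ end of each molecule, so levels are set against each other without dividing by gene length. In such sums, fewer cells with a gene and less RNA per cell cannot be told apart. Shares of cells with a UMI are given too, after every cell was reduced at random to 2000 UMIs. For a sparse gene these shares also move with its level per cell, so they do not settle the question.

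The monomer-binding thymosins are shown first, because these close relatives differed in their age ratio. In the coding sequences of Tmsb4x (chrX:167207093-167209315, minus strand, GRCm38) and Tmsb10 (chr6:72957347-72958748, minus strand), 40 of 135 bases differ and 70.4% are identical. Capitals mark the bases that differ.
Tmsb4x: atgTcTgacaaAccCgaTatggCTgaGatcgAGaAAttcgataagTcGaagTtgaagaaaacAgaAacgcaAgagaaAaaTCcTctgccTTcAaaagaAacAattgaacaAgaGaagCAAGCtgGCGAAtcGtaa
Tmsb10: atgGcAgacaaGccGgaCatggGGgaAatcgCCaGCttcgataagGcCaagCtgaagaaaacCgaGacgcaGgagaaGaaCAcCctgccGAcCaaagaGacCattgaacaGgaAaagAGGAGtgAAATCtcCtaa

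The actins are closer relatives. Actb (chr5:142903115-142906754, minus strand) and Actg1 (chr11:120345690-120348542, minus strand) share 88.7% of their 1128 coding bases. Counts near the 3′ end could be split between genes only where that end is shared. Of the 441 windows of 60 bases in the last 500 bases of each transcript, Tmsb10 shares 191 (43.3%) with Gm9844, which held 324 neonatal and 567 adult UMIs, and 56 with the pseudogene Gm3788, which was not counted. Actb shares 21 windows with Lrrc58, and the other 8 genes share none with another gene. The level of Tmsb10 is therefore uncertain by the reads that the aligner could not place.

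Together the 10 genes made up 2.58% of neonatal and 2.44% of adult UMIs. Tmsb4x, the most abundant, gave 45.3% of these in neonatal and 49.7% in adult cells. In cells of equal depth the summed count had a median of 51 per 2000 UMIs in neonatal cells (quartiles 42 and 60) and of 46 in adult cells (38 and 54). The share of B cell RNA spent on these genes was thus close in both libraries.

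Of the actins, Actb, the main cytoplasmic form, stood at 5027 CPM in neonatal and 4815 CPM in adult cells (log2 adult over neonatal −0.06, interval −0.07 to −0.05). Actg1, the second cytoplasmic form, stood at 1343 and 1346 CPM, with a log2 ratio of 0.00 (−0.02 to 0.03). Neither gene differed by as much as 1.2-fold. Actb was below 0 as it stands and at 0.09 after the median ratio of all genes was set to 0. There were 3.74 UMIs of Actb for each UMI of Actg1 in neonatal and 3.58 in adult cells.

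The monomer-binding genes diverged. Tmsb4x (thymosin β4), a main reservoir protein for actin monomers, was at 11694 CPM in neonatal and 12147 CPM in adult cells, a log2 ratio of 0.05 (0.05 to 0.06) that was −0.15 under a mitochondrial limit of 5%. Its relative Tmsb10 (thymosin β10) was at 2873 (2847 to 2899) and 2030 (2015 to 2045) CPM, a log2 ratio of −0.50 (−0.52 to −0.48) or 1.42-fold higher in the neonatal library. The ratio of Tmsb4x to Tmsb10 UMIs was 4.07 in neonatal and 5.99 in adult cells. Pfn1 (profilin 1), which loads monomers onto growing ends, was at 1017 and 1099 CPM, with a log2 ratio of 0.11 (0.09 to 0.14).

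Of the turnover genes, Cfl1 (cofilin 1), which severs filaments, was at 777 CPM in the neonatal and 648 CPM in the adult library. Its 1.199-fold difference lay just short of the 1.2-fold used to count genes. Coro1a (coronin 1A), a coat protein of leukocyte filaments, was at 1375 and 1086 CPM, a log2 ratio of −0.34 (−0.36 to −0.32) and 1.27-fold higher in the neonatal library. The Arp2/3 subunits were closer between the ages. Arpc1b was at 568 and 514 CPM (log2 −0.14, −0.18 to −0.11), and Arpc3 at 606 and 580 CPM (log2 −0.06, −0.10 to −0.03). With the median ratio of all genes set to 0, these ratios were 0.01 for Arpc1b and 0.09 for Arpc3, both on the adult side.

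Tagln2 (chr1:172500047-172507380, plus strand), a small protein that binds along filaments, stood apart from the other 9 genes. It was at 516 (505 to 527) CPM in neonatal and 179 (174 to 183) CPM in adult cells, 2.89-fold higher in the neonatal library (log2 −1.53, −1.58 to −1.48). Of the 9169 genes with at least 50 UMIs in each library, 62, Tagln2 included, had a ratio at or below this. The next member, Tmsb10, differed by a log2 ratio of −0.50.

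The median ratio of all 9169 genes was −0.15, and that of the 10 members −0.10. At least 1.2-fold higher in the neonatal library were 3 of the 10, namely Tagln2, Tmsb10 and Coro1a, beside 36.1% of all genes. None of the 10 was 1.2-fold higher in the adult library, where 12.7% of all genes were. Relative to the median gene, 2 members were 1.2-fold toward the neonatal library (Tagln2 at −1.38 and Tmsb10 at −0.35) and Pfn1 was toward the adult library (0.26). Pfn1 passed the limit only narrowly. The shares of all genes past these shifted limits were not computed, so the shifted counts are not read as a result about the members. A difference of the size seen for Tagln2 was thus not present in the other 9 genes. Without that shift, the share of members 1.2-fold higher in the neonatal library was near that of all genes.

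**Figure D1:**
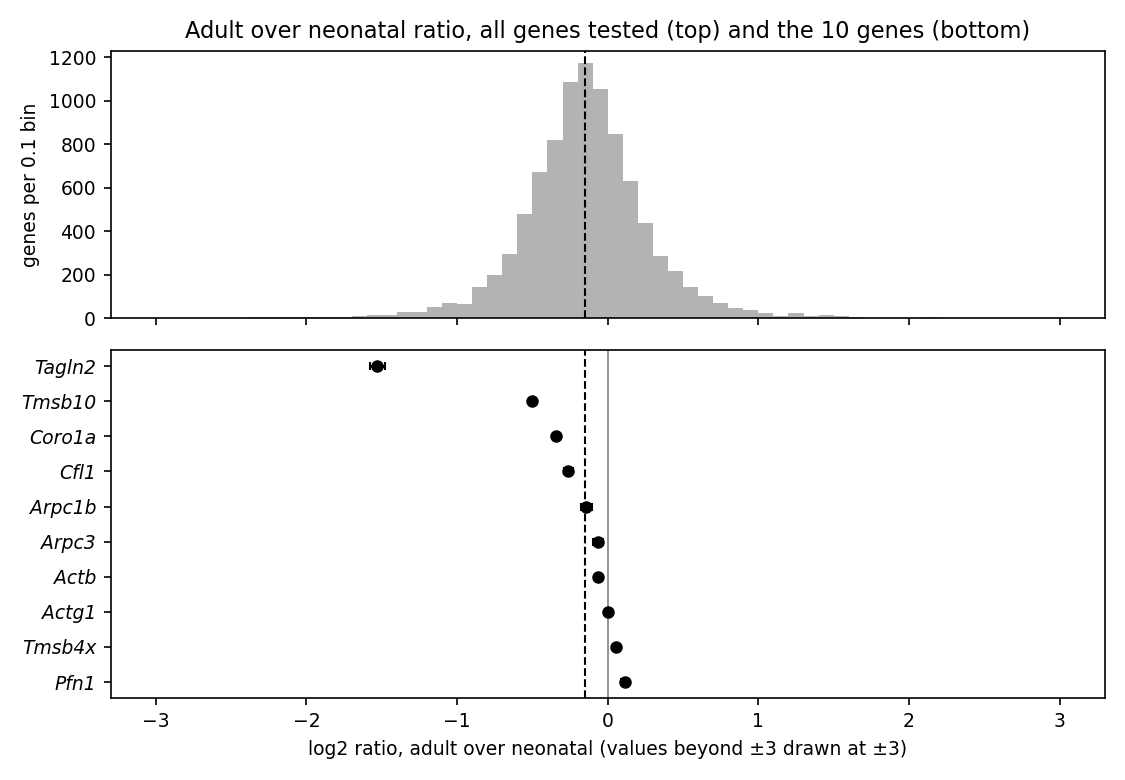
Log2 ratio of adult over neonatal level. The top panel counts all 9169 genes in bins of the ratio, and the bottom panel shows the 10 genes with 95% counting intervals, and the dashed line marks the median of all genes (−0.15). Tagln2 lies at −1.53, and the other 9 lie between −0.50 and 0.11.

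The share of cells with a Tagln2 UMI and the share with several both differed between the libraries. Mean counts were 0.887 in neonatal and 0.284 in adult cells of 2000 UMIs. At such means both shares move with the mean, so they do not separate fewer cells with Tagln2 from less Tagln2 RNA per cell. With every cell at 2000 UMIs, 45.5% of neonatal cells (946 of 2077, 43.4 to 47.7) and 20.4% of adult cells (736 of 3611, 19.1 to 21.7) had a Tagln2 UMI. Without that reduction the shares were 70.2% and 47.8%. Free RNA alone, taken from near-empty droplets, would give a UMI in 1.05% of neonatal and 0.399% of adult cells. In the neonatal library 114 cells (5.49%) held 4 or more Tagln2 UMIs of 2000, and in the adult library 23 (0.637%) did. The other members were found in most cells of either age, from 61.2% for Arpc1b in adult cells to 100% for Tmsb4x in neonatal cells.

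Tagln2 was also unevenly spread over cells for its level. The variance of its UMIs divided by their mean was 1.99 in neonatal and 1.59 in adult cells, where counting alone gives 1, and genes of like mean had medians of 1.13 and 1.05. Arpc1b (1.03 in both) and Arpc3 (1.005 in neonatal, 1.06 in adult) were close to 1. Tmsb4x, at a far higher mean, reached 3.91 and 3.03.

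Near-empty droplets, which hold RNA released by the whole suspension, carried Tagln2 at 502 CPM in the neonatal and 151 CPM in the adult library, much as their cells did. Subtracting that RNA left the ratio at −1.53. Markers of other cells were low but unequal. All 6 macrophage markers summed to 82.7 CPM in neonatal and 12.4 CPM in adult cells (mostly Lyz2), and the 6 neutrophil markers to 27.2 CPM (Mmp8 at 0) and 0.0289 CPM (all but Csf3r at 0). Leaving out the 43 neonatal and 60 adult cells with at least 2 markers of 1 other type gave −1.53.

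Restricting the neonatal library to the 1279 cells with a Y-linked and no Xist UMI gave a Tagln2 level of 545 CPM and a ratio of −1.61. The 323 neonatal cells with Xist and no Y-linked UMI were at 447 CPM. Their median depth was 5543 UMIs, against 6269 UMIs in the Y-linked cells, and the part of depth in this difference was not tested. A limit of 5% on mitochondrial UMIs kept 60 neonatal and 156 adult cells and reduced the Tagln2 ratio to −0.41, still higher in the neonatal library. In these cells Tmsb10 was at −0.37 and Actg1 at −0.24, so Tagln2 no longer stood clearly apart from Tmsb10.

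Cells were next divided by 6 genes associated with B1 cells, the innate-like B cells of body cavities: Bhlhe41, Zbtb32, Ctla4, Cd9, S100a6 and Nid1. A UMI of at least 3 of them, here called the class, was found in 177 neonatal (8.52%) and 580 adult cells (16.1%). These cells were deeper, with medians of 15881 UMIs against 5821.5 in the other neonatal cells and 16550 against 5150 in the other adult cells, and a rule on detected genes favours deep cells by construction. The 6 genes chose the class, and the 10 members were not used to choose it, but they come from the same cells. The class ratios below are therefore given as descriptions. Ratios at like depth follow for Tagln2, Actg1, Actb, Tmsb10, Pfn1, Arpc1b and Arpc3, and the class ratios of all other genes are pooled over depths only.

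Tagln2 was at 893 (863 to 925) CPM in class cells and 412 (401 to 423) CPM in the other neonatal cells, and at 253 (245 to 262) and 136 (131 to 141) CPM in adult cells. The class was 2.17-fold higher in the neonatal library (log2 1.12, 1.05 to 1.18) and 1.87-fold higher in the adult library (0.90, 0.83 to 0.97). The neonatal cells outside the class stood above the adult cells inside it. Actg1 followed, at 1859 against 1201 CPM in neonatal (log2 0.63) and 1661 against 1164 CPM in adult cells (0.51). Actb moved less, by 0.09 and 0.17, so the ratio of Actb to Actg1 UMIs was 2.84 in neonatal class cells against 4.13 in the others, and 3.12 against 3.95 in adult cells.

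Summed over all depths, Arpc1b was higher in the class by a log2 ratio of 0.28 in neonatal and 0.14 in adult cells. Tmsb10 was lower, at 2267 against 3040 CPM in neonatal (−0.42) and 1825 against 2148 CPM in adult cells (−0.24). Arpc3 (−0.12 and −0.16) was also on the lower side in these sums, but not at each depth in neonatal cells, as given below. Pooled over depths, Pfn1 (0.00 and 0.01), Cfl1 (0.01 and 0.10), Coro1a (−0.09 and −0.08) and Tmsb4x (−0.06 and 0.02) stayed within 0.10 of 0. Coro1a and Tmsb4x in the neonatal library changed sign when the median gene was set to 0.

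**Figure D2:**
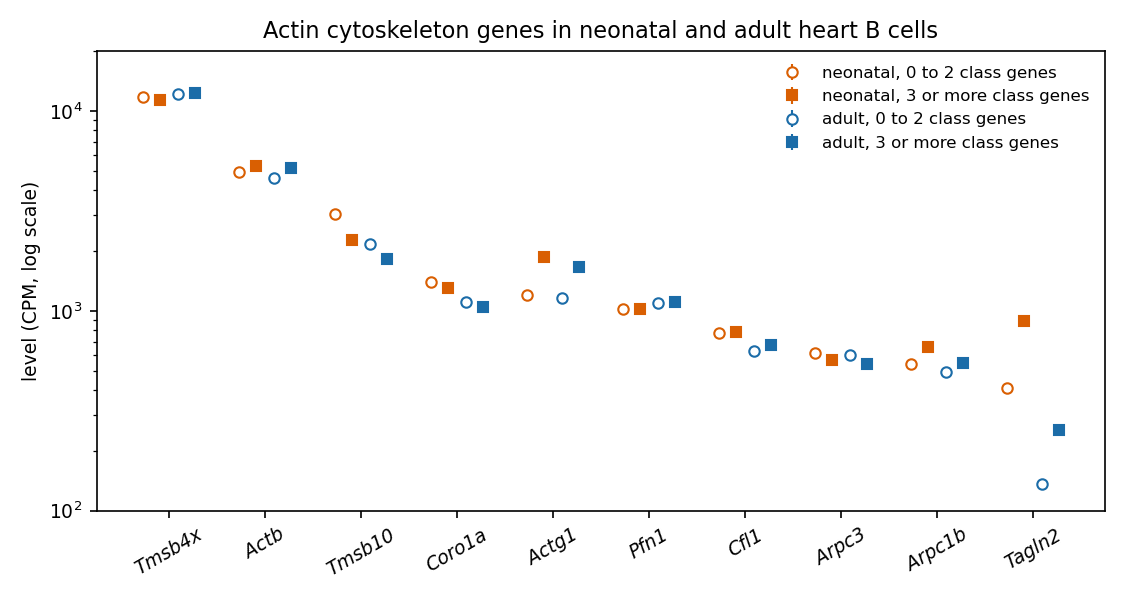
Level of each gene in CPM on a log axis, with 95% counting intervals that are mostly smaller than the symbols. Filled squares are cells with a UMI of 3 or more of the 6 B1 genes and open circles are the other cells. Tagln2 is ordered first by age and then by class. Actg1 is ordered first by class, at 1859 CPM in neonatal and 1661 CPM in adult class cells.

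In the neonatal library 3 of 10 members were at least 1.2-fold higher in the class (Tagln2, Actg1 and Arpc1b), beside 20.2% of 9244 genes, and Tmsb10 was 1.2-fold lower, beside 34.8%. In the adult library 2 members were higher (Tagln2 and Actg1), beside 16.5% of 10147 genes, and none was lower, beside 22.9%. Arpc1b was close to the 1.2-fold in neonatal cells. Without the cells with at least 2 markers of 1 other type, its ratio was 0.26 and the neonatal count was 2. Markers of other cells were higher in the class in part. In neonatal cells the 6 neutrophil markers summed to 63.3 CPM in the class (Mmp8 and Ly6g at 0) against 17.2, the T cell markers to 32.9 against 12.8 and the macrophage markers to 104 against 76.9. In adult cells the T cell markers summed to 38.0 against 15.2 CPM and the macrophage markers to 7.72 against 15.1, and the neutrophil markers were at 0 in the class. Without the cells with at least 2 markers of 1 other type the Tagln2 class ratio was 1.11 in neonatal and 0.90 in adult cells. Cells with only 1 marker of a type were kept. The median class ratio of the members was 0.00 against −0.11 for all genes in neonatal and 0.06 against −0.05 in adult cells. Of all genes, 96.3% in neonatal and 96.1% in adult cells had a class ratio at or below that of Tagln2, and 91.6% and 91.8% at or below that of Actg1.

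**Figure D3:**
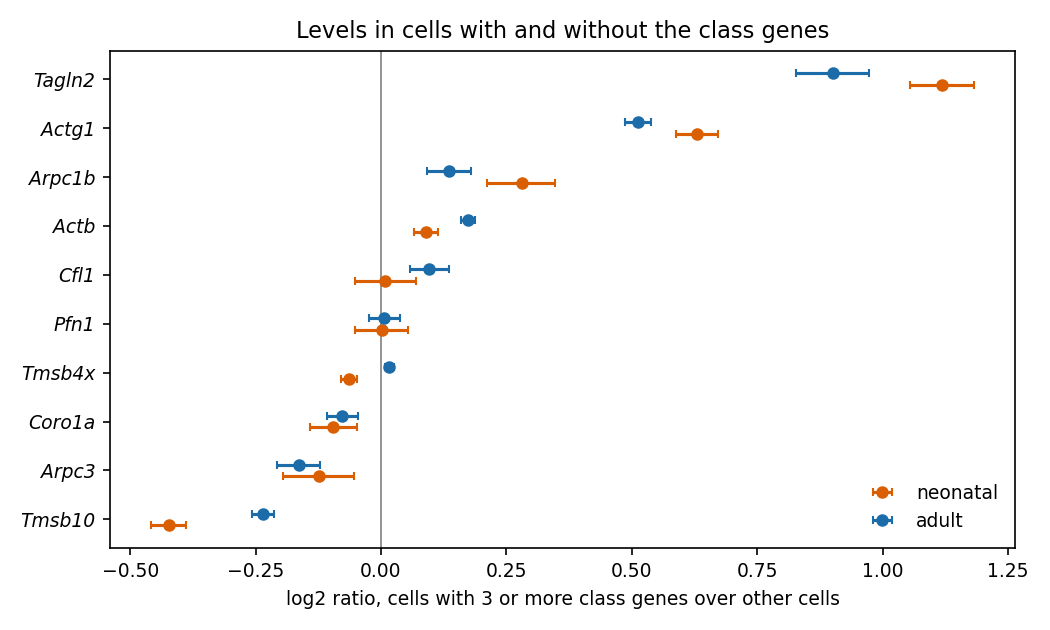
Log2 ratio of the level in class cells over other cells of the same library, with 95% counting intervals. The ratios are pooled over depths, and some signs change at like depth. Tagln2, Actg1, Arpc1b and Actb lie above 0 in both libraries, and Tmsb10, Arpc3 and Coro1a below 0 in both.

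Tagln2 was higher in the neonatal library inside and outside the class, by 3.53-fold (log2 −1.82) and 3.03-fold (−1.60). Both ratios were larger in size than the −1.53 of all cells together. Actg1, at 0.00 in all cells together, was at −0.16 (−0.20 to −0.12) inside the class and −0.05 (−0.07 to −0.02) outside it. The class ratio of Tagln2 was 0.22 lower on the log2 scale in adult than in neonatal cells, a difference that was not tested. The class may not hold like cells at both ages. Its 6 genes are higher in it by the rule, but by unlike folds in neonatal and adult cells. These were 1.74 and 8.07 for Bhlhe41, 48.7 and 18.7 for Zbtb32, and 11.96 and 16.85 for Ctla4. They were 13.1 and 7.34 for Cd9, 20.9 and 4.8 for S100a6, and 22.1 and 8.27 for Nid1. Outside the class, Bhlhe41 was 4.77-fold higher in the neonatal library.

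Depth moved with the class, so cells of like depth were compared. Outside the class Tagln2 itself was higher in deeper cells, at 259 CPM in neonatal cells of 2000 to 4000 UMIs and 454 CPM in those of 16000 or more, and at 96.3 and 181 CPM in adult cells. Within cells of 8000 to 16000 UMIs the class ratio of Tagln2 was 0.92 in neonatal (85 class and 327 other cells) and 0.75 in adult cells (254 and 650). At 16000 UMIs or more it was 0.99 in neonatal (88 and 46 cells) and 0.49 in adult cells (304 and 186). The 22 adult class cells of 4000 to 8000 UMIs gave 0.59 with an interval from −0.04 to 1.16. Tagln2 was thus higher in the class at each of these depths, with 1 interval that included 0.

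Actg1 at the same depths gave class ratios of 0.32 and 0.46 in neonatal and 0.30 and 0.28 in adult cells, below its pooled values. Actb was at −0.07 and 0.13 in neonatal and −0.05 and 0.06 in adult cells, so its sign changed with depth. Tmsb10 was at −0.42 and −0.04 in neonatal cells, where the interval of the deeper cells (−0.10 to 0.03) included 0, and at −0.34 and −0.15 in adult cells. Pfn1, near 0 when pooled, was at −0.22 and 0.19 in neonatal and at −0.19 and −0.06 in adult cells. Arpc1b was at 0.18 and 0.39 in neonatal cells. In adult cells it was at 0.05, with an interval (−0.04 to 0.13) that included 0, and 0.10. Arpc3 was at −0.03 (−0.16 to 0.10) and 0.13 (−0.01 to 0.28) in neonatal cells, where both intervals included 0. In adult cells Arpc3 was at −0.16 and −0.05 (−0.12 to 0.02).

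When all cells were reduced to 2000 UMIs before the 6 genes were counted, Tagln2 was higher with each further gene. Neonatal cells with 0, 1, 2 and 3 or more of the genes were at 390, 664, 952 and 1127 CPM (1638, 345, 69 and 25 cells). Adult cells were at 128, 205, 289 and 330 CPM (2507, 806, 226 and 72 cells), and the intervals of the last pair overlapped (272 to 306 and 299 to 363). Neonatal cells with none of the 6 genes were above adult cells with 3 or more. The cells that carried more of the genes still came from deeper droplets, with median depths before reduction of 5743 to 16784 UMIs in neonatal and 4798 to 15600 UMIs in adult cells.

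**Figure D4:**
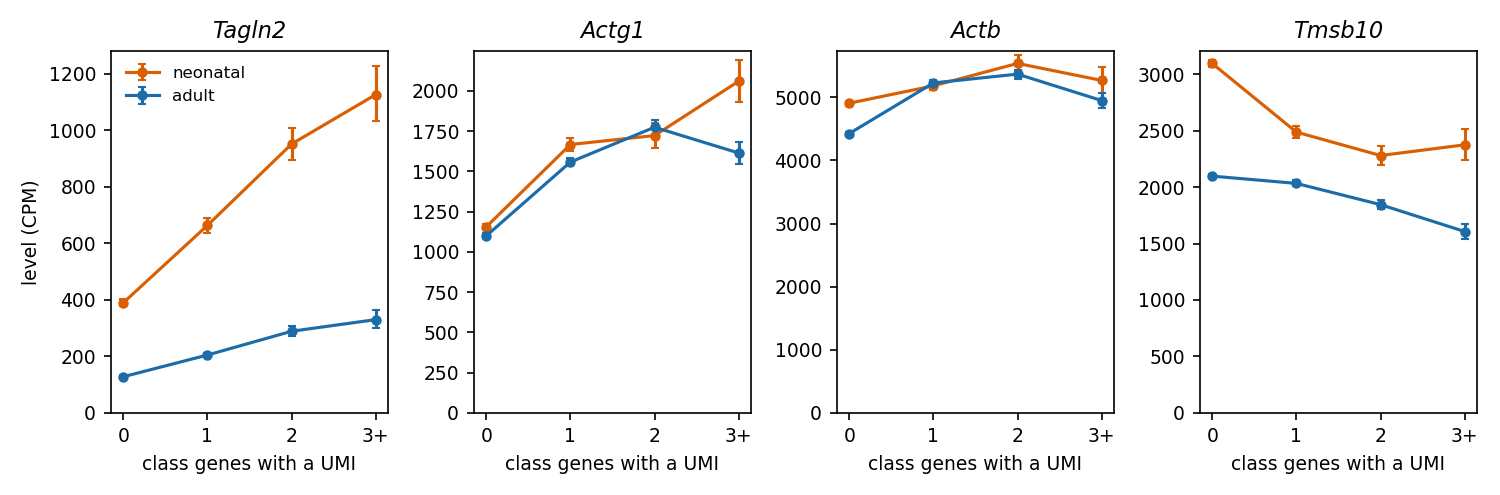
Level in CPM of Tagln2, Actg1, Actb and Tmsb10 by the number of the 6 B1 genes with a UMI in 2000 UMIs, with 95% counting intervals. Tagln2 is higher with each added gene in both libraries, from 390 to 1127 CPM in neonatal and from 128 to 330 CPM in adult cells, with no meeting of the lines, and Tmsb10 is highest in cells with none of the genes.

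Outside the class, Tagln2 was compared between cells divided by maturation genes, as found among 2000 UMIs of each cell. Levels are from all UMIs, so a cell without a UMI of a gene here may hold one at full depth. Cells with Vpreb3 and also Cr2 or Fcer2a were left out. Neonatal cells with a UMI of Vpreb3, a gene of immature B cells, and none of Cr2 or Fcer2a, the genes of CD21 and CD23, were at 388 CPM (705 cells). Those with Cr2 or Fcer2a and no Vpreb3 were at 360 CPM (333 cells). Those with a UMI of none of these genes were at 489 CPM (631 cells). In adult cells the values were 137 (410 cells), 130 (1148 cells) and 152 CPM (847 cells). Within each age the first groups differed little and the cells with none of the genes were highest, but these were also the deepest. Median depths in the same order were 5353, 5938 and 6267 UMIs in neonatal and 4458.5, 5335 and 5637 UMIs in adult cells. The part of depth in this order was not tested. For Tagln2, each neonatal group was above each adult group. Cfl1, Actb and Tmsb4x differed more between the first pair of neonatal groups, each higher in cells with Vpreb3. Cfl1 was at 843 against 654 CPM, Actb at 5345 against 4409 CPM and Tmsb4x at 12737 against 10647 CPM. The adult pair was closer, at 652 against 638 CPM for Cfl1, 4646 against 4677 CPM for Actb and 12541 against 12025 CPM for Tmsb4x.

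Cells with at least 2 of 6 cell cycle genes in 2000 UMIs carried more RNA of both actins, but not of every member. The 38 adult cells had 7363 CPM of Actb against 4722 in cells with none of these genes, 2584 against 1303 CPM of Actg1 and 16111 against 12005 CPM of Tmsb4x. Tagln2 stood at 500 against 170 CPM. The 15 neonatal cells had 6065 against 5003 CPM of Actb, 2193 against 1318 CPM of Actg1 and 822 against 503 CPM of Tagln2, while Tmsb4x (11710 against 11744 CPM) was level. Lower in them were Coro1a (1231 against 1385 CPM) and Arpc3 (517 against 610 CPM). Arpc1b was at 521 against 572 CPM, with an interval (460 to 587) that included the other level. In adult cells only Arpc3 was on the lower side (566 against 581 CPM), and its interval (519 to 617) included the other level. Tmsb10, Pfn1 and Cfl1 were higher in both libraries. The cells with cell cycle genes were deep, with medians of 23448.5 UMIs in adult and 32498 UMIs in neonatal cells. The part of depth in these values was not tested.

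Across cells of 2000 UMIs the actin genes were weakly correlated, and these values are descriptions, since all cells of an age share 1 library and counts are sparse. Over the 45 pairs of members the median Pearson r of log2(count + 1) was 0.06 in 2077 neonatal and 0.04 in 3611 adult cells. The highest were Actb with Tmsb4x (0.32 and 0.20), Actb with Pfn1 (0.26 and 0.24) and Actb with Actg1 (0.21 and 0.25). The 9 pairs with Tagln2 lay between −0.08 and 0.07 in both libraries.

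**Figure D5:**
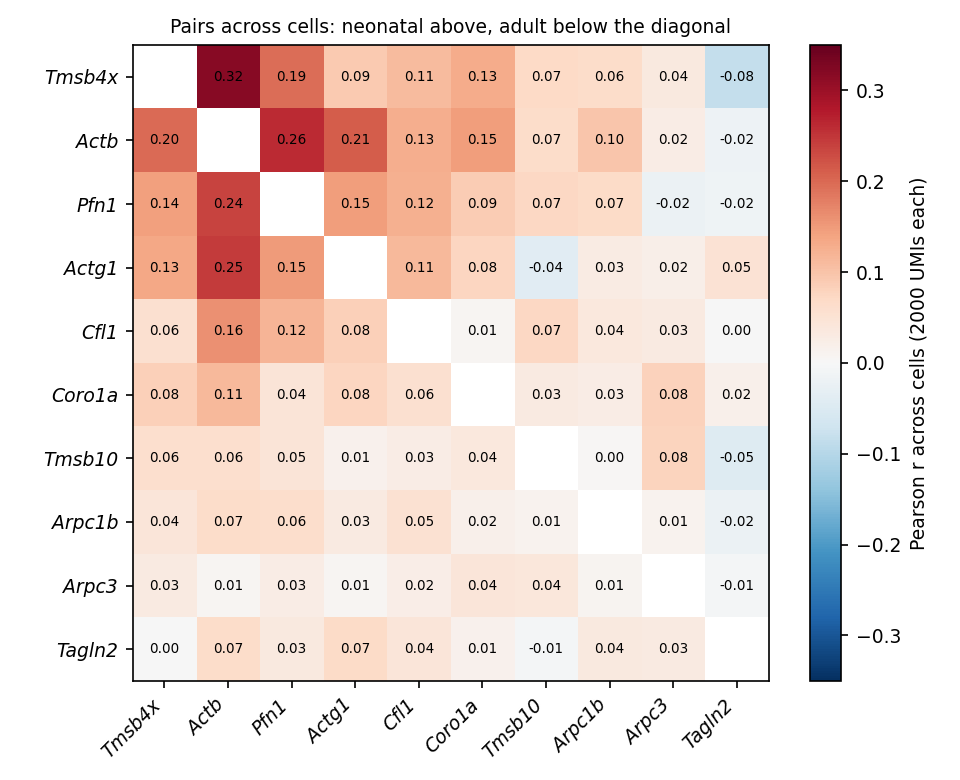
Pearson r of log2(count + 1) across cells reduced to 2000 UMIs, for each pair of the 10 genes, neonatal above and adult below the diagonal. The top left corner, where Tmsb4x, Actb, Pfn1 and Actg1 meet, holds the highest values, and the last row and column, Tagln2, lie between −0.08 and 0.07.

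The 5 genes most like Tagln2 over cells, of the 1100 with at least 100 CPM in both libraries, were Vim (vimentin, an intermediate filament protein), Ahnak, Crip1, S100a6 and Adgre5 (the adhesion receptor CD97). Their r with Tagln2 was 0.36, 0.27, 0.27, 0.22 and 0.14 in neonatal cells and 0.26, 0.22, 0.21, 0.18 and 0.13 in adult cells. No actin gene was among them. Vim, at 1214 CPM in neonatal and 649 CPM in adult cells, Ahnak (361 and 148 CPM), Crip1 (2086 and 923 CPM) and Adgre5 (427 and 197 CPM) were also higher in the neonatal library, with log2 age ratios of −0.90, −1.28, −1.18 and −1.11. S100a6, 1 of the 6 class genes, was at 710 and 642 CPM (−0.15). These correlations are over cells inside and outside the class together, and all 5 genes were higher in the class. Log2 class ratios in neonatal and adult cells were 1.42 and 1.065 for Vim, 1.66 and 1.80 for Ahnak, and 2.00 and 1.105 for Crip1. They were 0.37 and 0.20 for Adgre5, and 4.39 and 2.26 for S100a6, which is higher by the rule.

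The sum of the 10 genes was closest over cells to Ms4a1 (CD20), Ly6d, Cd52, Sh3bgrl3 and Cotl1 (a coactosin-like protein that binds filaments), with a mean r over both libraries from 0.26 to 0.18. Their log2 age ratios ran from −0.24 for Ly6d to 0.38 for Cd52.

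A wider list of 91 other genes of the actin cytoskeleton was set beside the members. Of the 79 with at least 50 UMIs in each library, 26 were at least 1.2-fold higher in the neonatal library, beside 36.1% of all genes, and 7 in the adult library, beside 12.7%, and their median ratio was −0.14. Among the 46 with at least 100 CPM in either library, the furthest to the neonatal side were the motor Myo1g (109 and 71.3 CPM, log2 −0.61), the end-capping protein Tmod3 (346 and 228 CPM, −0.60), the formin Fmnl1 (−0.51), the leukocyte filament-binding protein Lsp1 (707 and 503 CPM, −0.49) and the Arp2/3 subunit Arpc5 (−0.45). Of the less abundant genes, 6 lay further, led by the filament-severing Dstn (43.1 and 21.4 CPM, −1.01), Vcl (17.4 and 9.39 CPM, −0.89) and Actn1 (11.8 and 6.44 CPM, −0.88). None of the 79 reached the ratio of Tagln2.

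Toward the adult library, with the same limit of 100 CPM, stood the filament bundler Lcp1 (310 and 411 CPM, log2 0.41), the myosin light chain Myl12b (0.35), the motors Myo1e (0.33) and Myh9 (0.22), and Brk1, a subunit of the WAVE complex (0.27). Less abundant genes reached further there too, namely the filament-severing Gsn (15.1 and 34.5 CPM, 1.19) and Cyfip1 of the WAVE complex (27.4 and 43.4 CPM, 0.66). The other 7 Arp2/3 subunits had a median of −0.09. Srf and its actin-sensing coactivators Mkl1 and Mkl2, which together drive many actin genes, were at 22.7, 25.1 and 10.2 CPM in neonatal and 16.5, 18.0 and 8.41 CPM in adult cells, with a median ratio of −0.45. The muscle actin Acta1 was at 2 UMIs in each library and Acta2, that of smooth muscle, at 1 and 3 UMIs, so neither could be compared at this depth.

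By class, 10 of 79 wider genes were 1.2-fold higher and 17 lower in the neonatal library, beside 20.2% and 34.8% of all genes. In the adult library 10 of 81 were higher and 11 lower, beside 16.5% and 22.9%. Ranked in the higher direction among the 49 with at least 100 CPM in a class, the first in neonatal and adult cells were Capg, a capping protein (0.83 and 0.48), Lsp1 (0.64 and 0.47), Myo1e (0.26 and 0.51), the calponin Cnn2 (0.28 and 0.24) and the small GTPase Rac2 (0.26 and 0.23). Less abundant Actn1 (1.65 and 2.37) and Cyfip1 (1.69 and 1.03) were higher still. On the lower side, Cnn3, a relative of Cnn2, was at −1.15 and −0.78, opposite in direction to Cnn2. Ssh2, a phosphatase that activates cofilin, was at −0.80 and −0.62, and the GTPase Rhoh at −0.82 and −0.44. Less abundant Gsn was at −1.06 and −1.04. Capg was at 348 and 377 CPM in all neonatal and adult cells (age ratio 0.12), so its class ratios were on the side of those of Tagln2 and its age ratio was on the other side.

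Promoter sequence was compared because actin genes are known targets of serum response factor, whose site is the CArG box. RefSeq promoters (300 bases around a start, GRCm38.p6) matched 9 of the 10 genes, in 12 promoters; Actb had none and was not searched. The box, searched on both strands, was found in 1 member, Actg1, and in 535 of 32851 promoters (1.63%). It is shown in capitals within 30 bases, read 5′ to 3′ on the minus strand at chr11:120348566-120348595. Its first base lies 90 bases before the RefSeq start, which is not the same base as the gene start given earlier (120348542).
Actg1: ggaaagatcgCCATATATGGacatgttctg
The Tagln2 promoter held no such box in its window (chr1:172499996-172500295). Most of that window lies past the gene start given earlier (172500047), so little sequence before that start was searched. The letters TATAAA were in none of the 12 promoters, against 13.6% of all, and GGGCGG was in all 12, against 35.7%. The 12 are not independent, since Tmsb10 and Coro1a have more than 1 each and those of Tmsb10 overlap. Of 75 wider genes with a promoter, 8 held the CArG box (Acta1, Actc1, Arpc4, Cnn2, Myl6, Myo1e, Srf and Vcl). TATAAA was in 10 of these 75 genes and GGGCGG in 56. The counts for the wider list are of genes with a match in any of their promoters. They cannot be set against the shares given above, which are of promoters. These matches describe letters in a window and say nothing of binding.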

How the data were processed

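Both libraries were made with the Chromium Single Cell 3′ v3 protocol from hearts digested alike and sorted on the same day. The authors deposited raw UMI counts per gene for every barcode, without normalization, made by Cell Ranger on mm10 (version 3.0.2 per the file headers). Library totals were 26866958 neonatal and 49500780 adult UMIs. The TotalSeq antibody rows held 3 and 2 UMIs and were not used.

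The 10 genes, the lists and the class were chosen with earlier results of these data known. UMIs were summed over cells and divided by the total (CPM). Ratios have exact conditional binomial, levels exact Poisson and shares exact binomial 95% intervals, for counting error only. No doublet caller was run. The sort excluded doublets before droplets were made, and droplets that caught several cells were not called. Genes with at least 50 UMIs in each library (both classes together for class ratios) were ranked, and 1.2-fold was the size used for counts. Every cell had at least 2000 UMIs, so none was lost when cells were reduced to that number. Named besides the members are the 5 wider genes with the largest age ratio in each direction and class ratio (at least 100 CPM). The 5 genes closest to Tagln2 and to the sum are named too. Srf, Mkl1, Mkl2, Acta1, Acta2, Dstn, Vcl, Actn1, Gsn, Cyfip1, Cnn3, Ssh2 and Rhoh were singled out after their values were seen. Gene positions are from GENCODE vM21 (GRCm38, the build of mm10), which held 31011 of 31053 identifiers. Python 3.11.15, numpy, pandas and scipy were used. The ratio intervals were tested on simulated Poisson counts. Such counts hold counting error only, so how well the intervals cover counts that vary more between cells was not tested.

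The marker lists in neonatal and adult cells summed to 16784 and 19192 CPM (B cell), 17.1 and 23.6 (T cell), 0.488 and 0.520 (platelet, with Ppbp, Gp9 and Gp1bb at 0), 7.62 and 4.97 (erythroid), 2.32 and 2.74 (cardiomyocyte), 140 and 118 (endothelial, nearly all Pecam1), 0.610 and 0.375 (fibroblast), and 0.427 and 0.231 (smooth muscle).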

Additional observations from a re-analysis of the deposited data

How the results depend on the processing

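The Tagln2 age ratio (log2 −1.53) kept its sign under all 17 alternatives, and its class ratios (1.12 neonatal, 0.90 adult) under all 16. A mitochondrial limit of 5% left 60 and 156 cells. The Tagln2 age ratio was then −0.41, near the −0.37 of Tmsb10. The Tagln2 class ratio was 0.76 in neonatal and 1.51 in adult cells, and the share of adult cells with a Tagln2 UMI was 28.2%. In the neonatal library, with 12 class and 48 other cells, 5 members were 1.2-fold higher in the class. The share of all genes past 1.2-fold in these cells was not computed. The Tmsb10 neonatal class ratio reversed to 0.25. Other scaling gave a Tagln2 age ratio of −1.67 as a mean over cells, −1.60 in cells of 2000 UMIs, −1.45 without immunoglobulin, ribosomal and mitochondrial genes and −1.38 by median-of-ratios. Class ratios of Tagln2 were then 1.06 and 0.99 (adult, mean over cells and 2000 UMIs) and 1.19 and 1.22 (neonatal, without those genes and by median-of-ratios). By median-of-ratios 1 member (Pfn1) was higher in adult, which repeats its narrow ratio relative to the median gene given above. Other choices of cells gave age ratios of −1.61 (neonatal cells with a Y-linked and no Xist UMI), −1.82 (class), −1.60 (outside it) and −1.89 (4000 to 8000 UMIs, added after seeing the data). Classes of at least 2 and at least 4 genes gave 0.99 and 1.25 (neonatal), and cells of at least 8000 UMIs, also added, 0.98 and 0.64. At a fold of 1.5, 1 member (Tagln2) was higher by age, in neonatal cells, and 1 by class in adult cells, and at 1.1, 5 were higher in the neonatal library. The shares of all genes past these folds were not computed, so these counts are not read as a result about the members. The cause of these shifts was not tested. Actg1 by age changed sign under 9 of 17 alternatives, and Pfn1 by class under 8 (neonatal) and 6 (adult) of 16. No paired analysis was possible because each age has 1 library, and leaving out a library leaves no comparison.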
